A study of Mus musculus with 6 samples.

Results

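Wnt signalling in the embryonic mouse face was examined through the accessible chromatin around 32 genes: 17 Wnt ligands, 10 Frizzled receptors, the 2 co-receptors Lrp5 and Lrp6, and the 3 alternative receptors Ror1, Ror2 and Ryk. ATAC-seq maps open chromatin as the places where the Tn5 transposase can cut the DNA and leave its adapters. The peaks of 6 bulk libraries were merged into 382006 regions wherever they shared at least 1 bp. A region belonged to one of the 32 genes if its strongest summit lay nearest to a protein-coding start site of that gene, at most 100 kb away. This gave 864 regions of the 245067 that lay within 100 kb of any coding start site, of which 402 belonged to ligands, 272 to Frizzled receptors, 53 to Lrp5 and Lrp6, and 137 to Ror1, Ror2 and Ryk. Wnt3 and Wnt9b were not among the genes examined.

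All tissue came from embryos of genotype WT at stage e11.5, and face tissue was used fresh after dissection. The label maxillary process, the upper jaw primordium, was given to 2 libraries, the label mandibular process, the lower jaw primordium, to 2, and the label nose to 2. Cells are described as mixed, and nothing in the labels tells whether replicates are separate embryos, litters or pools, so every p-value below measures only the spread between these libraries, which may be technical. A region with lower signal may be open in fewer cells or less open in each cell, and bulk tissue cannot tell these apart.

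The labels need a caution before any result. For the 4 jaw lists, the deposited name abbreviates one jaw process while the sample is labelled as the opposite one, so the libraries are called maxillary-labelled and mandibular-labelled throughout, and every direction between them rests on the labels. The lower-jaw genes Hand1, Hand2, Dlx5 and Dlx6 did not settle the labels. Of their 122 regions, 4.92% were specific to the maxillary-labelled libraries (against 1.76% of all regions), 1.64% to the mandibular-labelled (against 2.54%) and 1.64% to the nose libraries (against 2.73%). The maxillary-labelled excess came from Hand2, with 4 such regions against 0 in the mandibular-labelled libraries, while Dlx6 had 2 and 2 and Hand1 and Dlx5 had 0 and 0. The Hand2 region 12.5 kb from its start site pointed the other way, with a log2 fold lower by 0.95 in the maxillary-labelled than in the mandibular-labelled libraries (limma, adjusted p = 0.0489). That region was also lower in the maxillary-labelled than in the nose libraries, by 1.10 (limma, adjusted p = 0.0279), so it did not set the mandibular label apart from nose. By presence, 7 Hand2 regions were called in both maxillary-labelled and neither nose library, and 0 the opposite way. The 6 lists held 219779 to 299731 peak lines, and their smallest −log10 q was 1.3 in 4 lists, 2.55 in maxillary-labelled replicate 2 and 1.62 in mandibular-labelled replicate 1. Read numbers were not used here, so the depth behind each list is unknown.

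Wnt proteins are secreted lipid-modified ligands that bind Frizzled receptors. Together with the co-receptors Lrp5 and Lrp6 they stabilise beta-catenin, which enters the nucleus and works with TCF and LEF factors on target genes. Some ligands, such as Wnt5a and Wnt11, also act without beta-catenin through Ror1, Ror2 or Ryk and the planar cell polarity pathway, which orients cells and drives tissue outgrowth. In the face, Wnt signals from the surface ectoderm and the mesenchyme guide growth and fusion of the facial processes.

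The regions on which the results turn are shown as 201 bases of the GRCm38 plus strand centred on the strongest summit. Capitals mark matches, on either strand, to short motifs: CTTTGAT or CTTTGAA of TCF and LEF factors, TAATTA of homeobox factors, GCCNNNGGC of AP-2 factors, TGTTTAC of forkhead factors, CAGATG of E-box factors and the CTCF core motif. A sequence with no capitals held none of these letters in its window. The 7 regions with unequal fold between labels come before a region specific to the nose libraries and a region that was strong in all libraries.
Ryk, 23.4 kb downstream of the start, chr9:102858281-102858481: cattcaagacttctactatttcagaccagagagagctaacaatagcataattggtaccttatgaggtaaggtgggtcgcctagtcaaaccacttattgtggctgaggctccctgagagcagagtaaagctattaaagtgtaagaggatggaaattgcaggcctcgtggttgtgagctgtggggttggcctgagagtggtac
Wnt7a, 63.4 kb downstream, chr6:91347890-91348090: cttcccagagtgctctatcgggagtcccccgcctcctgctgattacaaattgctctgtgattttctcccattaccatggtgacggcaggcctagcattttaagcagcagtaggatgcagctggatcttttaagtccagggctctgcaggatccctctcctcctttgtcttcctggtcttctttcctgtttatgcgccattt
Fzd5, 53.8 kb upstream, chr1:64791467-64791667: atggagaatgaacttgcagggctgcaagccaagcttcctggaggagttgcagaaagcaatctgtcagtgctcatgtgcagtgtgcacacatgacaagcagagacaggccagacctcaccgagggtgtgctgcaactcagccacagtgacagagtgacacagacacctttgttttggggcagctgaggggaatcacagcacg
Wnt11, 64.4 kb upstream, chr7:98770621-98770821: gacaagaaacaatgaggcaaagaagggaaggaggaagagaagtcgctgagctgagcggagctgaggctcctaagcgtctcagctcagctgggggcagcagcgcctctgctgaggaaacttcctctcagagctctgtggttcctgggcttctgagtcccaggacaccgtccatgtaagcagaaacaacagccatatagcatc
Fzd10, 48.8 kb downstream, chr5:128649565-128649765: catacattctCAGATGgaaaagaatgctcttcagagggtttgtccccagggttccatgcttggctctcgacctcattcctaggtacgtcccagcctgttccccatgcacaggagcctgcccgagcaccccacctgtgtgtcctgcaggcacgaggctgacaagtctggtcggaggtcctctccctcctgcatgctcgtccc
Fzd9, 13.1 kb upstream, chr5:135264217-135264417: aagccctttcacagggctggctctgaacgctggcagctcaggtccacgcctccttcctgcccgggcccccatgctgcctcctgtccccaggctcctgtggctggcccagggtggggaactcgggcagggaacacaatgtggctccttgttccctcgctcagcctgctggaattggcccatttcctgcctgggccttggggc
Lrp6, 61.7 kb downstream, chr6:134505077-134505277: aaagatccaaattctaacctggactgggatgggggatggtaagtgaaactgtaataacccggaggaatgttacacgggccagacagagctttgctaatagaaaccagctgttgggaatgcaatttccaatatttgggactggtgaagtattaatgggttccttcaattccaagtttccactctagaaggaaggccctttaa
Fzd4, 33.9 kb downstream, specific to nose, chr7:89438112-89438312: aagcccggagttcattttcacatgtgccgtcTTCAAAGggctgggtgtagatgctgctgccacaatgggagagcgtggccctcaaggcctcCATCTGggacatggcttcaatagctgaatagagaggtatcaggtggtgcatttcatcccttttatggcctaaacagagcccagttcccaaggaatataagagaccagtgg
Fzd2, 8.83 kb upstream, strong in all libraries, chr11:102595462-102595662: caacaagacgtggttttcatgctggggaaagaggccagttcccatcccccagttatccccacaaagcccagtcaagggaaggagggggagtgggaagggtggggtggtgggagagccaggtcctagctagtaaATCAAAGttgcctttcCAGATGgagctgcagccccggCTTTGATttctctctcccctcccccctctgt
The Fzd2 window held 2 matches to CTTTGAT with a CAGATG between them, the Fzd4 window held a match to CTTTGAA and one to CAGATG, and the Fzd10 window held a CAGATG. The other 6 windows held none of the motifs.

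Most of the 32 genes had an open promoter in every library, and the receptors without exception. A region with its strongest summit within 1 kb of a start site, called a promoter region here, was present in all 6 libraries at 27 of the 32 genes, against 60.8% of all 21827 coding genes. The 27 comprised all 15 receptors and co-receptors and 12 of the 17 ligands. Counting regions in any library, 30 genes had a promoter region and only Wnt8b and Wnt10a had none, nor did any region overlap the 1 kb around their start sites. The count was 26 with lists of equal length, 24 when a −log10 q of at least 3 was required, and 27 without any one of the 6 libraries.

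**Figure D1:**
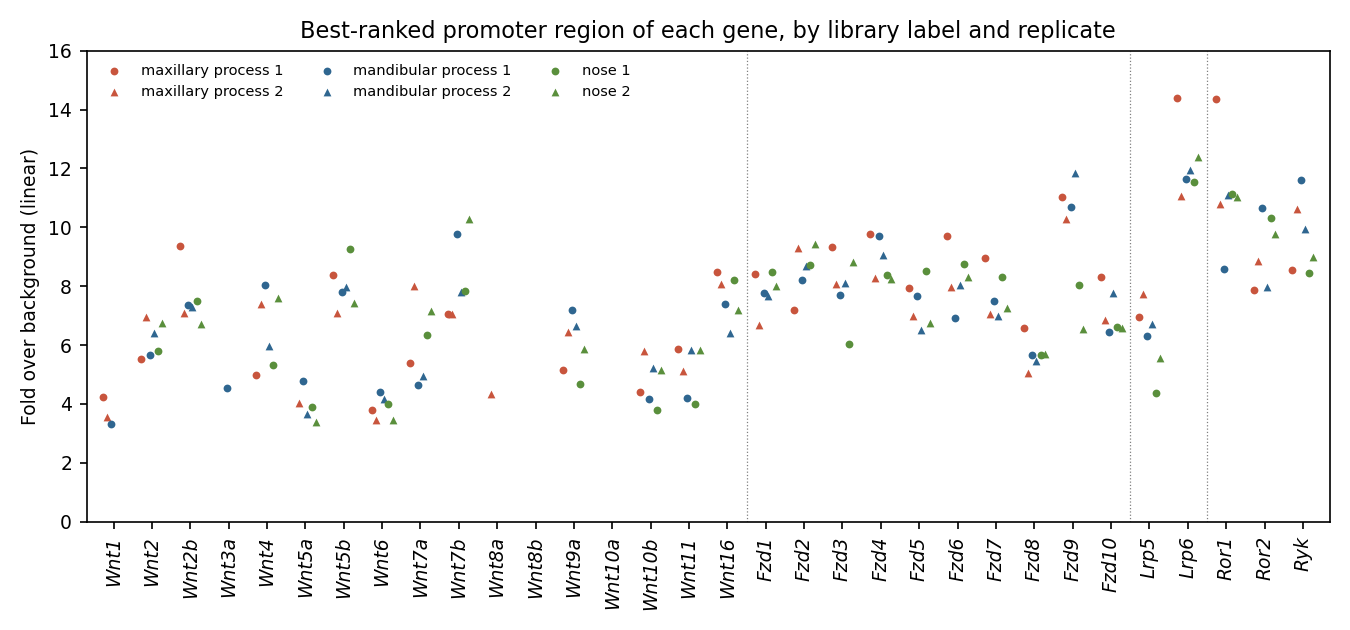
Fold over background (vertical axis, linear, ratio of a summit to its local background as the authors' peak caller gave it) of the best-ranked promoter region of each gene (horizontal axis) in the 6 libraries, circles for replicate 1 and triangles for replicate 2, red for maxillary-labelled, blue for mandibular-labelled and green for nose, with a missing point where no peak was called. Dotted lines separate ligands, Frizzled receptors, Lrp5 and Lrp6, and Ror1, Ror2 and Ryk; receptor promoters reach a mean of 12.2 at Lrp6, ligand promoters a mean of 8.3 at Wnt7b, and Wnt8b and Wnt10a have no point.

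Receptor promoters had the higher fold in the median, with overlapping ranges. Among genes whose best-ranked promoter region was called in all 6 libraries, the mean fold of the 15 receptors and co-receptors lay between 5.69 (Fzd8) and 12.2 (Lrp6) with a median of 8.28, and that of 11 ligands between 3.87 (Wnt6) and 8.3 (Wnt7b) with a median of 6.18, while the best-ranked promoter region of Wnt5a was called in 5. The median width of these regions was 1126 bp at receptors and 607 bp at ligands. Lrp6, which hands the signal on to the beta-catenin branch, had the highest promoter of all, with folds of 14.4 and 11.1 in the maxillary-labelled, 11.6 and 12 in the mandibular-labelled and 11.54 and 12.4 in the nose libraries at chr6:134566279-134567404. Ror1, a receptor tyrosine kinase that binds Wnt5a, followed with 14.4 and 10.8, 8.58 and 11.1, and 11.1 and 11 in the same libraries at chr4:100095591-100096917. In both genes the values of the 3 labels overlapped.

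The mean folds of the Frizzled promoters ran from 5.69 (Fzd8) to 9.74 (Fzd9). Over the 6 libraries, the mean fold was 9.74 ± 2.02 for Fzd9, 8.91 ± 0.711 for Fzd4, 8.59 ± 0.82 for Fzd2, 8.28 ± 0.916 for Fzd6, 8.02 ± 1.14 for Fzd3, 7.83 ± 0.654 for Fzd1, 7.68 ± 0.781 for Fzd7, 7.39 ± 0.775 for Fzd5 and 7.10 ± 0.756 for Fzd10 (SD, n = 6 libraries), so neighbours in this order lay within their spread. Fzd8 had the lowest, at 5.69 ± 0.499. Ryk had 9.69 ± 1.26, Ror2 9.25 ± 1.19 and Lrp5 6.27 ± 1.17. Fzd10 had a further promoter region, 0.58 kb upstream, that was called in the mandibular-labelled libraries at 2.86 and 2.42 and in the nose libraries at 2.71 and 4.36, and in neither maxillary-labelled library.

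Among promoter regions called in all libraries, that of Fzd9, a Frizzled receptor, had the smallest adjusted p of limma between labels. Its folds were 11 and 10.3 in the maxillary-labelled and 10.7 and 11.9 in the mandibular-labelled libraries, against 8.04 and 6.54 in the nose libraries, so both nose values lay below the other 4. The log2 difference of 0.62 ± 0.20 (SE) between mandibular-labelled and nose libraries did not pass the threshold (limma, adjusted p = 0.134). Such a separation was not particular to Fzd9. At the Lrp5 promoter the nose folds of 4.38 and 5.55 also lay below the other 4, which ran from 6.31 to 7.73. At the best-ranked promoter regions of Wnt6 and Wnt9a both mandibular-labelled values lay above the other 4. At that of Wnt7a both mandibular-labelled values lay below the other 4, and at that of Wnt7b both maxillary-labelled values did. The share of all promoter regions with such a separation was not computed here. Across the 35 promoter regions called in all libraries, none passed in any contrast, the smallest adjusted p of limma being 0.311 for maxillary-labelled against mandibular-labelled, 0.209 for maxillary-labelled against nose and 0.134 for mandibular-labelled against nose.

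Among ligands, the promoters ranged from broad open regions to none. Wnt7b, a ligand of lung and placenta development, had a promoter region with folds of 7.05 and 7.05 in the maxillary-labelled, 9.76 and 7.79 in the mandibular-labelled and 7.83 and 10.3 in the nose libraries. This region was narrow, at 198 bp, and lay 741 bp upstream of the start in a noncoding exon of AU022754. The Wnt7b regions within 0.064 kb of a start site were called in only 2 or 3 libraries. Wnt5b, a close relative of Wnt5a, had folds of 8.40 and 7.09 in the maxillary-labelled, 7.79 and 7.97 in the mandibular-labelled and 9.26 and 7.42 in the nose libraries. Wnt5a, which drives outgrowth of the face and limbs, had 5 weaker promoter regions at its alternative start sites, 2 of them called in all 6 libraries with folds between 2.52 and 5.29. The gene with the largest number of regions, Wnt11, had 5 promoter regions too, of which 2 were called everywhere, with folds between 4.01 and 5.98. The region at the most upstream Wnt11 start site, chr7:98834776-98835329, was weak, at 2.61 to 2.96 in the 5 libraries that called it. The other ligands with a promoter region in all libraries had mean folds of 7.63 ± 0.77 for Wnt16, 7.56 ± 0.93 for Wnt2b, 6.54 ± 1.3 for Wnt4, 6.18 ± 0.601 for Wnt2, 6.08 ± 1.33 for Wnt7a, 5.99 ± 0.957 for Wnt9a, 4.76 ± 0.76 for Wnt10b and 3.87 ± 0.387 for Wnt6 (SD, n = 6 libraries). At Wnt9a, a ligand of joint development, a further weak region 0.427 kb downstream was called in the maxillary-labelled libraries at 2.88 and 3.29 and in the mandibular-labelled ones at 2.94 and 3.44, and in neither nose library.

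The 5 ligands without a promoter region in all libraries were Wnt1, Wnt3a, Wnt8a, Wnt8b and Wnt10a. Wnt1, a signal of the midbrain and the dorsal neural tube, had a weak promoter region in 3 libraries, with folds of 4.23 and 3.55 in the maxillary-labelled libraries and 3.33 in mandibular-labelled replicate 1. Wnt3a, a ligand of the tailbud and neural tube, had 3 promoter regions. The best-ranked one, 0.656 kb downstream, was called in mandibular-labelled replicate 1 alone, at 4.55. The one at the start site was called in maxillary-labelled replicate 1 at 3.59 and in mandibular-labelled replicate 1 at 4.58. In the nose libraries it had 4.2 and 3.84. The Wnt3a intron held a region called everywhere 26.7 kb from the start. Its folds were 4.23 and 7.5 in the maxillary-labelled, 10.8 and 8.42 in the mandibular-labelled and 4.2 and 7.19 in the nose libraries. Wnt8a had promoter regions called in a single library each. Wnt10a, a ligand of tooth and hair development, had 17 regions although none lay at its start site, and 7 of them were called everywhere. The strongest of these, 25.5 kb downstream, had folds of 6.91 and 10.5 in the maxillary-labelled, 9.13 and 9.66 in the mandibular-labelled and 8.90 and 9.59 in the nose libraries. Wnt8b, a forebrain ligand, had 5 regions, of which one, in a coding exon, was called in all libraries.

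Promoter sequences from RefSeq (GRCm38.p6, 250 bases before to 50 after the annotated start) matched 22 of the 32 genes. Fzd2, Fzd3, Fzd6, Fzd8, Lrp5, Lrp6, Wnt5a, Wnt7b, Wnt8a and Wnt10a were not matched. Among the matched genes, the 19 with a promoter region in all 6 libraries held 10 to 58 CG pairs in the 300 bases with a median of 38, Wnt1 and Wnt3a held 26 and 45, and Wnt8b held 6. Over all coding genes matched, the median was 21 CG pairs for 10391 genes with a promoter region in all libraries, 5 for 1463 genes with one in some and 2 for 4661 genes with none. The sequences of Wnt9a, with the highest count, of Wnt16, which shared the lowest count among matched promoters open everywhere with Ror1, and of Wnt8b, with no promoter region, are given 5′ to 3′ on the strand of the gene, with capitals at each CG.
Wnt9a, chr11:59306680-59306979, plus strand: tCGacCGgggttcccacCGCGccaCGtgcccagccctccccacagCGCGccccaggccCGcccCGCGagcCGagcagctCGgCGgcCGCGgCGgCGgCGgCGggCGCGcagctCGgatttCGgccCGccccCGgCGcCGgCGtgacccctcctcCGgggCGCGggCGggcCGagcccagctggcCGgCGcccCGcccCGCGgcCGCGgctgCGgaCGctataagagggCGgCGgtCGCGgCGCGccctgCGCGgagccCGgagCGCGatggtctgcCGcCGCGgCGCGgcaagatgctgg
Wnt16, chr6:22287977-22288276, plus strand: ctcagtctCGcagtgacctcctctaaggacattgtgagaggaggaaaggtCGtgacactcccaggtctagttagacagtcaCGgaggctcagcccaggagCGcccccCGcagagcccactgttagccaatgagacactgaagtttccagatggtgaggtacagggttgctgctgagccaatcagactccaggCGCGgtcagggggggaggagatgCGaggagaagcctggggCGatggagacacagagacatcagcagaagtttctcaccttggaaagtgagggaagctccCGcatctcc
Wnt8b, chr19:44493222-44493521, plus strand: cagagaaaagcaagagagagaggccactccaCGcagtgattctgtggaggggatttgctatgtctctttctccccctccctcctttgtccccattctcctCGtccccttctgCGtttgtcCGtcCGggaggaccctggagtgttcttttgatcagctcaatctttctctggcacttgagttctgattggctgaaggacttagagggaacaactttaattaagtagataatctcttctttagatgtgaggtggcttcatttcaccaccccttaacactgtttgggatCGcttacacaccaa
The Wnt8b count lay below those of the 19 matched genes with a promoter region in all libraries, a contrast that rests on 1 gene. The best-ranked promoter region of Wnt16, a ligand known for its role in bone, had its summit 574 bp downstream of the start in a coding exon, with folds of 8.49 and 8.08 in the maxillary-labelled, 7.39 and 6.42 in the mandibular-labelled and 8.20 and 7.20 in the nose libraries.

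The genes had many regions away from their promoters. The median gene of the family had 23 regions, against 5 for all coding genes, with the ground nearest to its start sites spanning a median of 113 kb against 47.4 kb. Per 10 kb of that ground, the medians were 2.81 and 1.41 regions. Wnt11 had the most, with 70 regions, followed by Fzd1 with 53, Ror1 with 52, Fzd10 with 50 and Wnt16 with 49, while Fzd3 and Wnt8b had 5 each and Wnt1 had 6. Promoter regions made up 8.33% of the family's regions and 12.9% of all regions, or 12.8% and 15.8% with a promoter limit of 2 kb. By the annotation at the strongest summit, 436 of the 864 regions lay in introns, 347 between genes, 29 in coding exons, 20 in 3′ UTRs, 17 in noncoding exons and 15 in 5′ UTRs. Many introns belonged to other genes: of the 70 regions of Wnt11, 30 lay in Uvrag, and of the 49 regions of Wnt16, 24 lay in Cped1. Assignment to the nearest start site does not show which gene a region acts on.

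**Figure D2:**
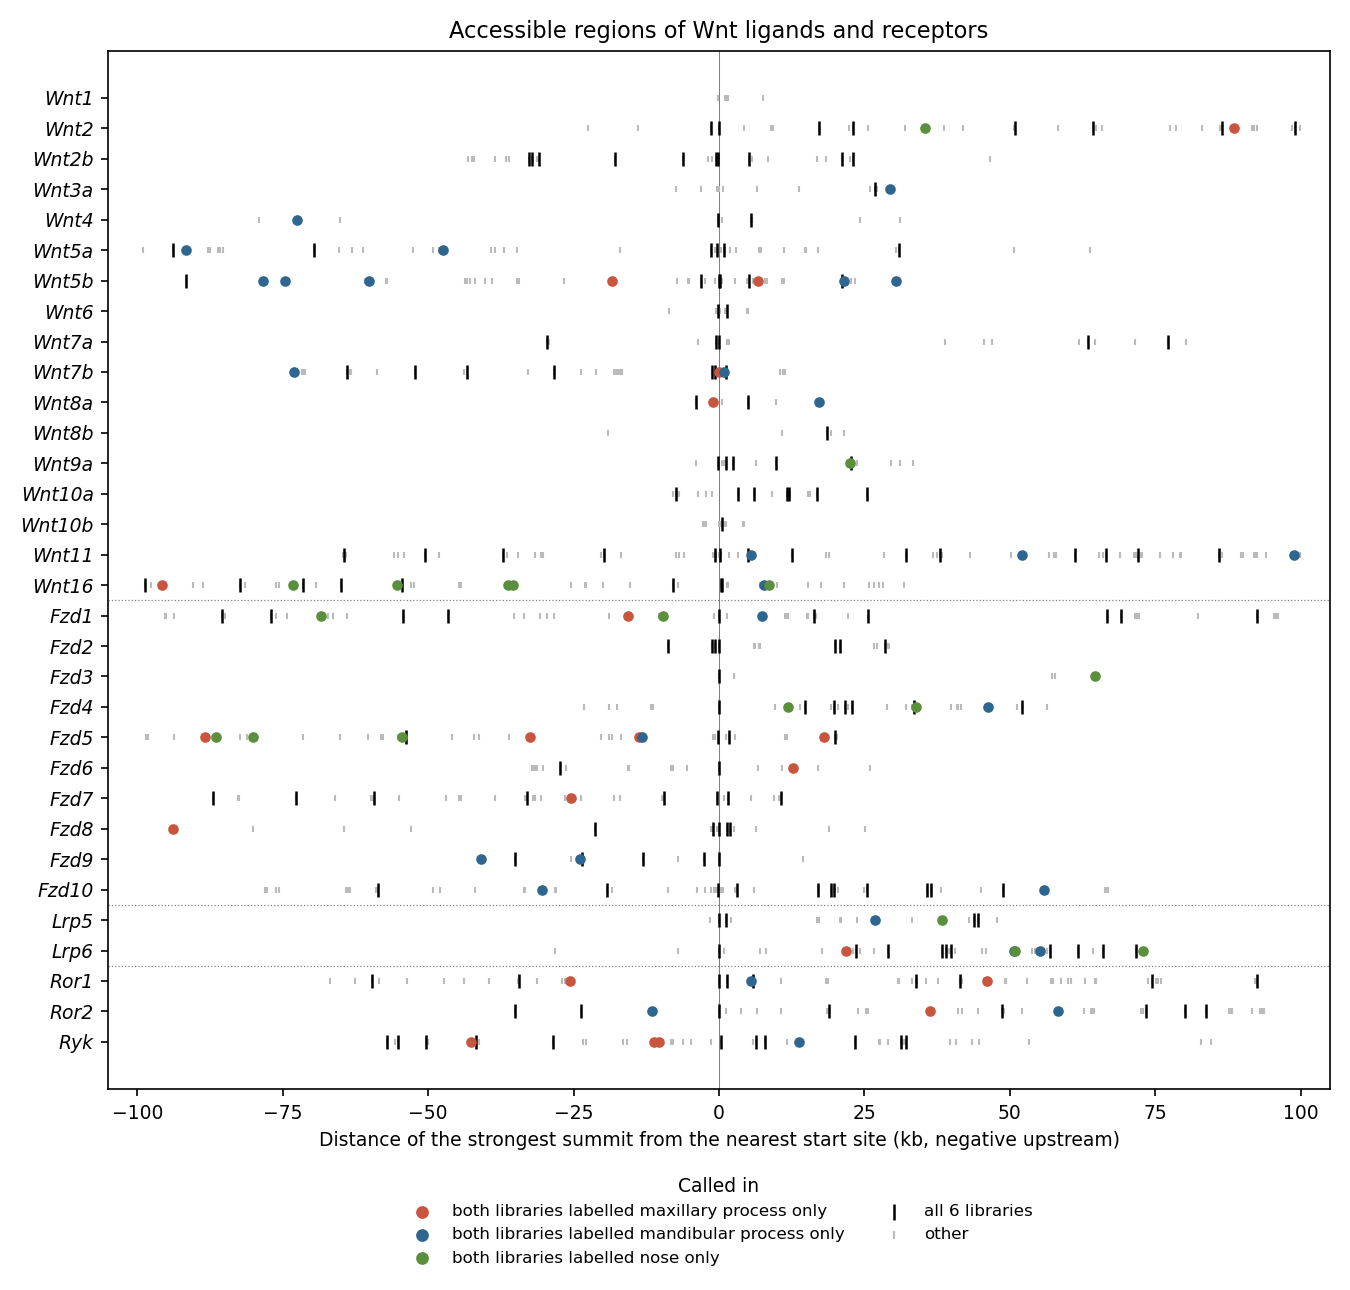
Position of each of the 864 regions relative to the nearest start site of its gene (horizontal axis, kb, negative upstream; genes on the vertical axis). Red, blue and green dots mark the 21, 30 and 18 regions specific to the maxillary-labelled, mandibular-labelled and nose libraries, that is called in the 2 libraries of a label alone, tall black ticks the 187 regions called in all 6 libraries and short grey ticks all others; dots lie at a distance from the start site in nearly all cases.

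The 6 libraries called 373 and 430 of the 864 regions (maxillary-labelled), 473 and 427 (mandibular-labelled) and 396 and 429 (nose). In all 6 libraries 187 regions were called, which is 21.6% (95% Wilson interval 19.0 to 24.5%), against 21.7% of all regions. The intervals cover counting error only and treat neighbouring regions as independent. The family's share was close to the background, with 48.6% (37.4 to 59.9%) against 56.1% for the 72 promoter regions and 19.2% (16.6 to 22.1%) against 16.6% for the 792 distal ones. A peak in a single library was found for 336 regions, 38.9% against 41.6%. The overlap of libraries, as the Jaccard index over the 864 regions (regions called in both of a pair divided by regions called in either), was 0.547 ± 0.0094 (SD, n = 3 pairs) between libraries of the same label and 0.479 ± 0.0278 (n = 12 pairs) between labels. The lowest same-label pair, at 0.536, lay above the highest pair of different labels, at 0.531. Over all regions within 100 kb of a coding start site the means were close to these, at 0.546 and 0.476. There the lowest same-label pair stood at 0.544 and the highest pair of different labels at 0.504. The one-sided exact permutation p over the 15 possible pairings of libraries was 0.0667 for both sets of regions, the smallest that this design allows.

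The strongest shared distal regions were those of Wnt7b, Wnt7a, Fzd2, Lrp5 and Ror2, chosen by mean rank with at most 1 region per gene. The region 52.2 kb upstream of Wnt7b, chr15:85634348-85635295, lies between genes and had folds of 15.6 and 13.8 in the maxillary-labelled, 13.3 and 13.3 in the mandibular-labelled and 13.8 and 15.4 in the nose libraries. The region 29.5 kb upstream of Wnt7a, chr6:91440785-91441659, in an exon of the noncoding gene 4930471M09Rik, had folds of 17.1 and 13.8, 14 and 14.8, and 13.6 and 16.7. Wnt7a is known for dorsal patterning of the limb. The Fzd2 region with the pair of TCF/LEF matches, chr11:102595095-102596152, had folds of 10.7 and 14, 11.9 and 14.2, and 11.7 and 13.2. The region in an intron of Lrp5, chr19:3642553-3642975, had 11.3 and 8.22, 11 and 8.99, and 9.89 and 9.08. The region 23.7 kb upstream of Ror2, a receptor for Wnt5a, chr13:53309091-53310239, had 10.3 and 10.7, 10.4 and 10.4, and 9.89 and 10.5. The mandibular-labelled values of the Wnt7b region lay just below the other 4. In all 5 regions the log2 differences were at most 0.12 in size, with adjusted p of limma between 0.867 and 0.996.

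Regions specific to a label were few and mostly weak. The maxillary-labelled libraries had 21 (2.43%, 1.60 to 3.69%) against 1.76% of all regions, the mandibular-labelled 30 (3.47%, 2.44 to 4.91%) against 2.54%, and the nose libraries 18 (2.08%, 1.32 to 3.27%) against 2.73%. Each background share lay inside the interval of the family. By role, the ligands had 6, 16 and 7 such regions of 402 in maxillary-labelled, mandibular-labelled and nose libraries. The Frizzled receptors had 8, 7 and 8 of 272, and Lrp5 and Lrp6 1, 3 and 3 of 53. Ror1, Ror2 and Ryk had 6, 4 and 0 of 137. These counts stand beside 1.76%, 2.54% and 2.73% of all regions, and differences between roles were not tested. The median fold in the label-specific regions was 4.25, 3.8 and 3.76 for the 3 labels. In each list the 8 most common fold values formed a ladder with equal steps of 0.395 to 0.604 that began between 3.15 and 3.62, so many of these weak peaks share the same few values. With a −log10 q of 3 or more required, and weaker peaks counted as absent, there were 7 specific regions for each label. With lists of equal length the counts were 22, 16 and 13. With 1 library left out, presence in its label rests on the other alone, and the counts then ran up to 71 without maxillary-labelled replicate 1, 118 without mandibular-labelled replicate 2 and 73 without nose replicate 2.

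**Figure D3:**
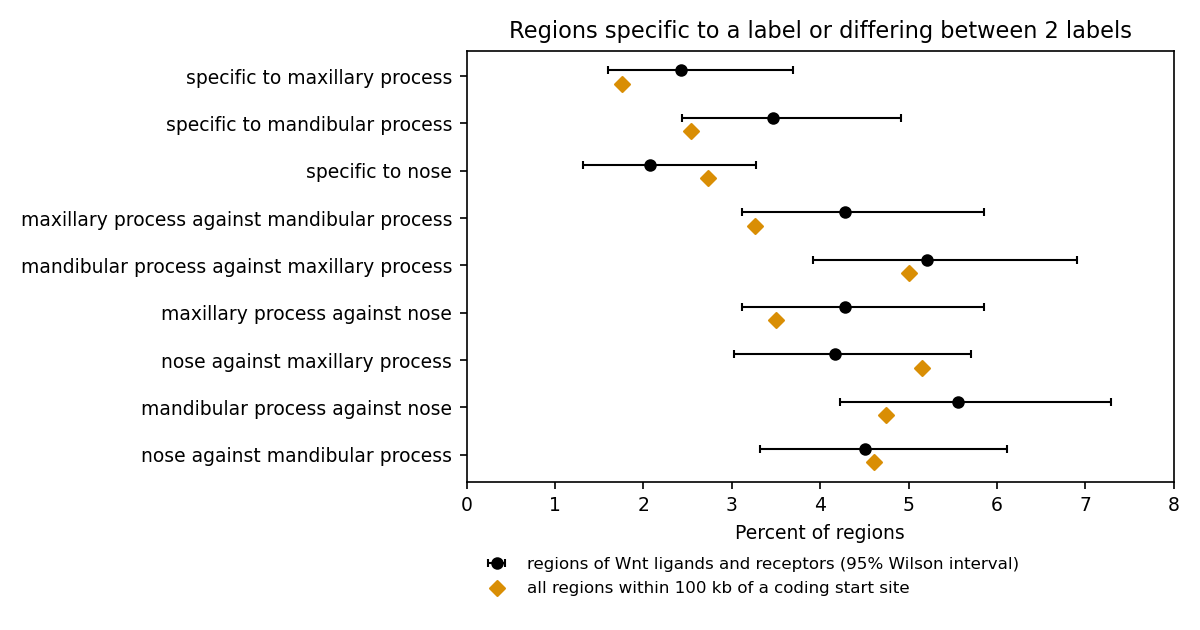
Percent of regions (horizontal axis) that were specific to a label, that is called in both of its libraries and none of the other 4, or that had a peak in each library of a label and in neither library of another (vertical axis). Black circles with 95% Wilson intervals stand for the 864 regions of Wnt ligands and receptors and orange diamonds for all 245067 regions; every diamond lies within the interval beside it.

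Of the label-specific regions, 3 lay in the better-ranked part of both lists, taking the upper 50% by −log10 p. The maxillary-labelled region lies 93.8 kb upstream of Fzd8, a Frizzled receptor, with folds of 4.83 and 6.71. The nose region 33.9 kb downstream of Fzd4, chr7:89438035-89438427, in an intron of AI314278, had folds of 5.50 and 6.35. Fzd4, a Wnt receptor that also binds Norrin in retinal vessels, had a further nose region 11.9 kb downstream with folds of 4.36 and 5.02. The nose region 9.71 kb upstream of Fzd1, chr5:4767580-4767819, had folds of 4.73 and 4.80. No mandibular-labelled region met this limit. The promoter of Wnt7b carried label-specific regions in both jaws at different alternative start sites, at 3.65 and 3.81 in the maxillary-labelled libraries, 0.047 kb upstream, and at 2.85 and 3.06 in the mandibular-labelled libraries, 0.861 kb downstream. No other promoter region of the family was specific to a label.

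Maxillary-labelled and mandibular-labelled libraries were compared by regions that had a peak in each library of a label and in neither library of the other. In the maxillary-labelled direction 37 regions differed (4.28%, against 3.26% of all regions), and in the mandibular-labelled direction 45 (5.21%, against 5.0%). Fzd5, a Frizzled receptor of eye and placenta development, led the maxillary-labelled direction with 7 regions against 1 of the opposite kind. Of these 7, which lay 13.7 to 98.2 kb from the start site with folds of 3.62 to 6.81 and a median of 4.6, 4 were called in neither nose library, 1 in one and 2 in both. Wnt5b had 4 regions in the maxillary-labelled direction and 5 in the opposite one, so its locus held calls of both kinds. Fzd1 had 3 and 2, and 4 and 10 without mandibular-labelled replicate 2. The Fzd5 counts were 8 against 7 without mandibular-labelled replicate 1, 8 against 4 without mandibular-labelled replicate 2 and 2 against 0 at a −log10 q of at least 3. In the mandibular-labelled direction Ror2 had 4 against 2, and 3 against 3 with lists of equal length. Wnt11 had 4 against 0, and 1 against 1 both with lists of equal length and at the stricter q. Without maxillary-labelled replicate 2 it had 13 against 7, and without mandibular-labelled replicate 2 it had 15 against 2. The ligand genes together had 10 of their 402 regions in the maxillary-labelled direction and 23 in the mandibular-labelled one. The Frizzled genes had 17 and 11 of 272. Over all regions the shares were 3.26% and 5.0%, and differences between roles were not tested. With lists of equal length the totals were 48 and 24 in place of 37 and 45, so the direction with more regions depended on the length of the lists, and maxillary-labelled replicate 1 had the shortest.

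Maxillary-labelled and nose libraries differed in 37 regions in the maxillary-labelled direction (4.28%, against 3.50%) and 36 in the nose direction (4.17%, against 5.15%). Ror1 had 4 regions in the maxillary-labelled direction and 0 in the nose direction, with folds of 3.62 to 8.31. The counts were 4 and 4 without nose replicate 1 and 4 and 6 without nose replicate 2, so the one-sided count rested on both nose libraries. The strongest of them, chr4:100055811-100056379, 39.6 kb upstream, had folds of 5.43 and 8.31 in the maxillary-labelled libraries and 3.34 in mandibular-labelled replicate 2, with no peak in either nose library. Fzd5 had 4 and 3 and Wnt11 had 4 and 2, and without nose replicate 1 they had 5 and 6 (Fzd5) and 4 and 6 (Wnt11). In the nose direction Wnt16 had 5 regions against 3 and Fzd1 4 against 2. With lists of equal length both genes had 1 against 2, so the order turned round.

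Mandibular-labelled and nose libraries differed in 48 regions in the mandibular-labelled direction (5.56%, against 4.75%) and 39 in the nose direction (4.51%, against 4.61%). The Wnt11 locus had 9 regions in the mandibular-labelled direction and 0 in the nose direction, a difference already known when the genes were chosen. Wnt11 drives cell movements in gastrulation of frog and fish embryos and branching of the mouse kidney. Of its 70 regions, the maxillary-labelled libraries called 32 and 33, the mandibular-labelled 48 and 43, and the nose libraries 29 and 32, so both mandibular-labelled counts lay above the other 4. These are 45.7% and 47.1%, 68.6% and 61.4%, and 41.4% and 45.7% of the gene's regions, while over all regions the libraries called 39.8% and 48.2%, 51.6% and 48.5%, and 47.5% and 51.0%. Such a separation was not particular to Wnt11. Both mandibular-labelled counts also lay above the other 4 at Wnt7b, Fzd9, Fzd10 and Lrp6. At Lrp6 both maxillary-labelled counts, 16 and 19, also lay below the other 4. Both nose counts lay above the other 4 at Wnt2, Fzd1, Fzd6 and Lrp5, and below them at Wnt5b. The share of all coding genes with such a separation was not computed here, so the list of genes cannot be read as a trait of the family. Whether these separations exceed chance was not tested. The 9 regions had folds of 3.0 to 6.01, 7 lay in introns of Wnt11 or Uvrag, and none was a promoter region. The strongest, chr7:98827962-98828453, 6.90 kb upstream of the start, had folds of 5.42 and 6.43 in the maxillary-labelled and 6.01 and 4.68 in the mandibular-labelled libraries and no peak in the nose libraries. Of the 9, 3 were called in both maxillary-labelled libraries, 3 in one and 3 in neither. The Wnt11 count stayed between 4 (distance of 50 kb) and 20 (without mandibular-labelled replicate 2) under the alternatives, and the opposite count reached 4 when either nose library was left out.

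**Figure D4:**
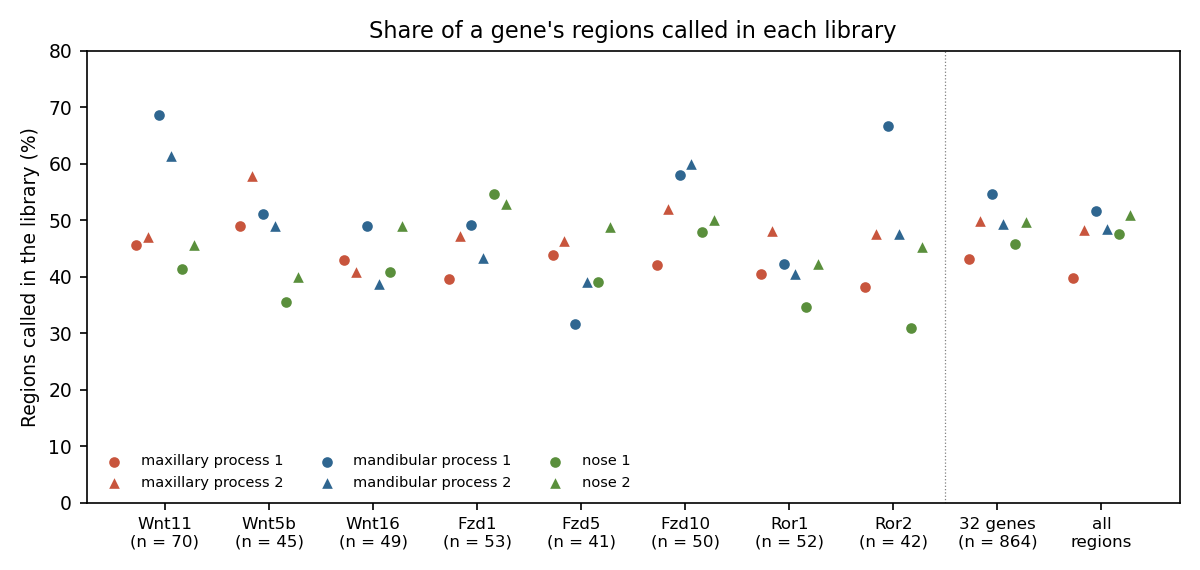
Percent of a gene's regions called in each library (vertical axis) for 8 genes, for the 32 genes together and for all 245067 regions (horizontal axis; n, number of regions). The 8 genes are those among the first 3 by differing regions in at least 1 contrast and direction, with ties taken alphabetically. Circles are replicate 1 and triangles replicate 2, red for maxillary-labelled, blue for mandibular-labelled and green for nose. For Wnt11 the mandibular-labelled points at 68.6% and 61.4% lie above the other 4, as they do for Fzd10, and for Ror1 the 3 labels overlap.

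Other genes of this contrast differed less in number. Wnt5b had 5 regions in the mandibular-labelled direction and 2 in the nose direction, and all 5 were specific to the mandibular-labelled libraries, at folds of 3.34 to 8.08 in introns of Wnt5b and Erc1. Its 45 regions were called 22 and 26 times in the maxillary-labelled, 23 and 22 times in the mandibular-labelled and 16 and 18 times in the nose libraries. Fzd10, a Frizzled receptor of the dorsal neural tube and limb, had 4 and 1, with 29 and 30 of 50 regions called in the mandibular-labelled libraries, 24 and 25 in the nose libraries and 21 and 26 in the maxillary-labelled ones. Without nose replicate 1 the Fzd10 counts were 4 and 6. In the nose direction Wnt16 had 6 against 2, Fzd1 5 against 1 and Fzd5 5 against 2. The 6 regions of Wnt16 were weak, with a median fold of 3.36. When a −log10 q of 3 or more was required, weaker peaks counted as absent in every library. The nose direction then had 0 regions of Wnt16 and 5 of Fzd1, not necessarily the same 5. Without mandibular-labelled replicate 2, Wnt16 had 6 against 8. Of the Fzd1 regions, the one 72.2 kb downstream was also called in both maxillary-labelled libraries, with folds of 5.42 and 6.35 there and 4.51 and 6.11 in the nose libraries.

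Where a region was open in all 6 libraries, its fold over background was compared by limma on quantile-normalised log2 values over all 69940 such regions, with a Benjamini-Hochberg threshold of 0.05. Of the 187 regions of the family, 1 was higher in the maxillary-labelled than in the mandibular-labelled libraries (0.535%, against 0.526% of all regions) and 0 were lower (against 0.455%). Between maxillary-labelled and nose libraries 3 were higher (1.60%, against 0.808%) and 0 lower (against 0.566%). Between mandibular-labelled and nose libraries 3 were higher (1.60%, against 1.37%) and 2 lower (1.07%, against 1.11%). At an unadjusted p of limma under 0.05 there were 26 regions between the jaw labels (13.9%, against 14.2% of all regions), 16 between maxillary-labelled and nose libraries (8.56%, against 14.4%) and 34 between mandibular-labelled and nose libraries (18.2%, against 16.1%). The calls fell on 7 regions, all distal. These percentages refer to all 69940 regions, at any distance from a start site. The median size of the log2 difference was set beside that of the regions among them within 100 kb of a coding start site. It was 0.170 against 0.165 between the jaw labels and 0.165 against 0.169 between maxillary-labelled and nose libraries. Between mandibular-labelled and nose libraries it was 0.187 against 0.174.

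**Figure D5:**
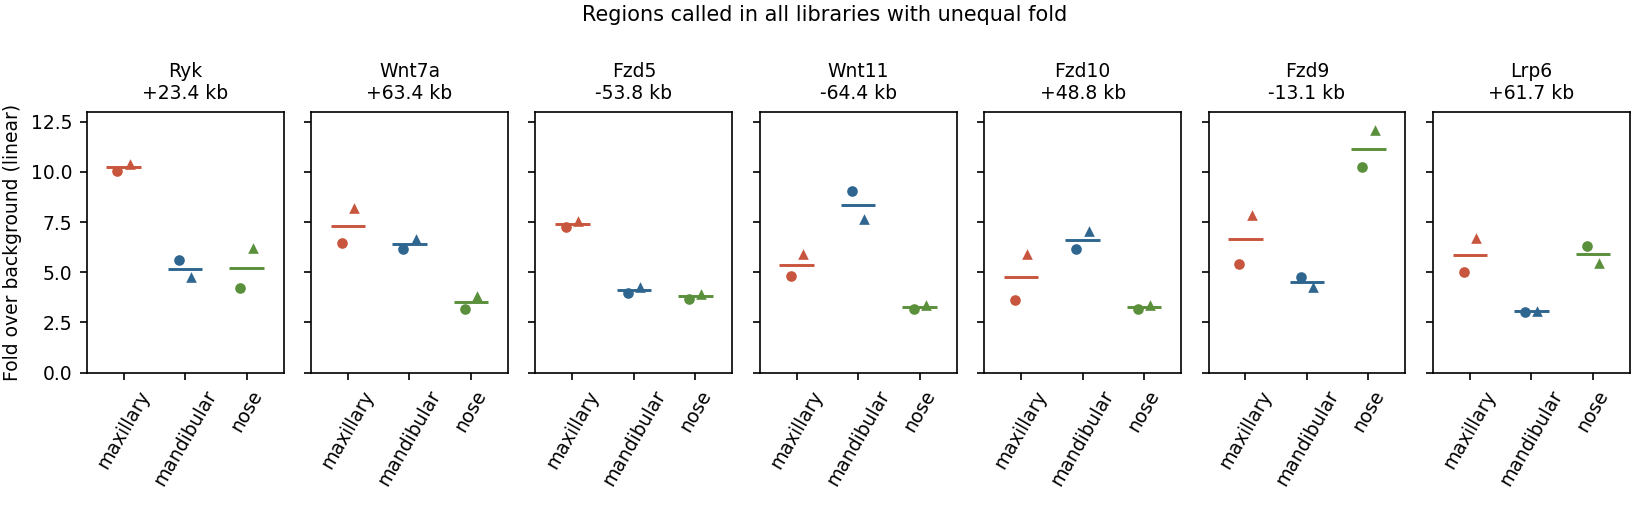
Fold over background (vertical axis, linear) in the 6 libraries, grouped by label (horizontal axis), of the 7 distal regions of Wnt ligands and receptors that passed the limma threshold in at least 1 contrast, each titled with its gene and distance from the start site. Circles are replicate 1, triangles replicate 2 and bars the mean of the 2 libraries; the Ryk region stands at 10.1 and 10.4 in the maxillary-labelled libraries, and the Fzd9 region at 10.3 and 12.1 in the nose libraries.

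Among the ligands, Wnt11 and Wnt7a each had a region of this kind. The Wnt11 region between genes, chr7:98770635-98770797, had folds of 4.83 and 5.92 in the maxillary-labelled, 9.03 and 7.63 in the mandibular-labelled and 3.15 and 3.36 in the nose libraries. The 3 labels did not overlap, and the log2 difference between mandibular-labelled and nose libraries was 1.29 ± 0.19 (SE, limma adjusted p = 0.0116). Both nose folds equalled the lowest of the 8 most common values of their lists, with −log10 q of 1.46 and 1.85. Against the other labels the maxillary-labelled libraries did not pass, with log2 differences of -0.63 and 0.66 (limma, adjusted p = 0.131 and 0.113). The Wnt7a region, chr6:91347627-91348074, had folds of 6.45 and 8.17 in the maxillary-labelled and 6.18 and 6.64 in the mandibular-labelled libraries, against 3.15 and 3.84 in the nose libraries. It was higher in both jaws than in the nose, by 1.03 ± 0.19 and 0.82 ± 0.19 on the log2 scale (limma, adjusted p = 0.0286 and 0.0456). Its fold of 3.15 in nose replicate 1 was again the lowest common value of that list, with a −log10 q of 1.46.

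Among the Frizzled receptors, Fzd9, Fzd5 and Fzd10 had such regions. The Fzd9 region between genes, chr5:135263940-135264977, had folds of 5.43 and 7.87 in the maxillary-labelled and 4.75 and 4.29 in the mandibular-labelled libraries, against 10.3 and 12.1 in the nose libraries. The nose values lay above the other 4, and the log2 difference between mandibular-labelled and nose libraries was -1.30 ± 0.20 (limma, adjusted p = 0.0119). At the Fzd9 promoter the corresponding value of 0.62 had the other sign and did not pass. The Fzd5 region, chr1:64791296-64791843, lies in the 3′ UTR of the neighbouring gene Plekhm3. Its folds were 7.24 and 7.55 in the maxillary-labelled, 3.96 and 4.27 in the mandibular-labelled and 3.67 and 3.93 in the nose libraries. It was higher in the maxillary-labelled than in the nose libraries by 0.93 ± 0.19 (limma, adjusted p = 0.0384) and did not pass against the mandibular-labelled ones, at 0.84 ± 0.19 (limma, adjusted p = 0.0587). The Fzd10 region, chr5:128649312-128650084, between genes, had folds of 3.62 and 5.92, 6.18 and 7.06, and 3.15 and 3.36, with a difference of 0.95 ± 0.21 between mandibular-labelled and nose libraries (limma, adjusted p = 0.0382). Its folds of 3.62, 3.15 and 3.36 were each the lowest common value of their list, with −log10 q of 2.01, 1.46 and 1.85.

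Among the co-receptors and alternative receptors, Lrp6 and Ryk had a region each, both in their own introns. The Lrp6 region, chr6:134504878-134505409, had folds of 5.01 and 6.68 in the maxillary-labelled, 3.04 and 3.08 in the mandibular-labelled and 6.32 and 5.48 in the nose libraries. It was lower in the mandibular-labelled than in the nose libraries by a log2 difference of -0.96 ± 0.19 (limma, adjusted p = 0.0262). Ryk encodes a receptor with a Wnt-binding domain and an inactive kinase. Its region, chr9:102857789-102858768, had folds of 10.1 and 10.4 in the maxillary-labelled, 5.61 and 4.76 in the mandibular-labelled and 4.2 and 6.18 in the nose libraries. The maxillary-labelled values were above the other 4, with log2 differences of 1.02 ± 0.21 and 0.99 ± 0.21 against mandibular-labelled and nose libraries (limma, adjusted p = 0.0453 and 0.0428).

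Among the regions with unequal fold, only those of Fzd9 and Ryk had a −log10 q of at least 3 in every library. Few of the calls passed with fewer libraries in the fit. With any one library left out, all differences kept their sign. The Wnt11 and Fzd9 calls passed only without maxillary-labelled replicate 2 (limma, adjusted p = 0.0493 for both), with adjusted p up to 0.0998 and 0.0920 without other libraries. The Ryk call between the jaw labels passed only without either nose library (limma, adjusted p = 0.0386 at the lowest) and the Wnt7a call against nose for the maxillary-labelled libraries only without either mandibular-labelled library (0.0414 at the lowest). The Fzd5, Fzd10 and Lrp6 calls, the Ryk call against nose and the Wnt7a call for mandibular-labelled libraries passed in none of these fits, with adjusted p of limma from 0.0561 to 0.266.

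Motif matches within 100 bp of the strongest summit were counted beside those of all regions of the same class. Among distal regions the shares were close, and CTTTGAT was found in 4.42% of the 792 against 3.67% of all 213495, CTTTGAA in 5.18% against 5.21%, TAATTA in 4.67% against 4.76%, GCCNNNGGC in 7.32% against 6.36%, TGTTTAC in 2.65% against 3.14%, CAGATG in 19.1% against 21.3% and the CTCF core motif in 2.40% against 3.02%. Windows with 2 or more TCF/LEF matches, as at Fzd2, were found at 5 distal regions of the family (0.631%, against 0.479%). At promoter regions GCCNNNGGC stood in 16 of 72 windows (22.2%, against 15.5%), CTTTGAA in 4 (5.56%, against 2.70%), CTTTGAT in 1 (1.39%, against 1.74%) and TAATTA in 0 (against 1.81%), differences that were not tested, and the median GC content was 64.4% against 58.7%. A match is a stretch of letters and not evidence of binding.

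Among other genes of the Wnt pathway (antagonists, R-spondins and their receptors, ligand secretion, the destruction complex, TCF and LEF factors, feedback targets and planar cell polarity), 48 of 52 had a promoter region in all libraries, against 60.8% of all coding genes. Among their 311 regions called in all libraries, limma found 2 higher (0.643%, against 0.526% of all regions) and 0 lower (against 0.455%) in the maxillary-labelled than in the mandibular-labelled libraries. Between maxillary-labelled and nose libraries, 2 were higher (0.643%, against 0.808%) and 3 lower (0.965%, against 0.566%). Between mandibular-labelled and nose libraries, 5 were higher (1.61%, against 1.37%) and 5 lower (1.61%, against 1.11%). Sfrp1, a secreted antagonist that binds Wnt ligands, had a region 74.5 kb from its start with log2 differences of -1.19 and -1.06 for maxillary-labelled and mandibular-labelled libraries against nose (limma, adjusted p = 0.0227 and 0.0182). Axin2, a feedback target of beta-catenin, had a region 90.9 kb from its start that was higher in the maxillary-labelled and in the mandibular-labelled than in the nose libraries, by 1.14 and 0.97 (limma, adjusted p = 0.0260 and 0.0299). By presence of peaks the Axin2 locus leaned the other way, with 5 of its 55 regions specific to the nose libraries and 0 to either jaw label. Of the 209 regions of the TCF and LEF factors, 0.478% were specific to the maxillary-labelled, 6.22% to the mandibular-labelled and 1.44% to the nose libraries, beside 1.76%, 2.54% and 2.73% of all regions. The secreted antagonists had 1.71%, 4.86% and 0.571% of 350 regions in the same order. These were the 2 highest mandibular-labelled shares among the pathway lists. The others were 4.17% (ligand secretion, 48 regions), 3.72% (R-spondins and their receptors), 3.39% (feedback targets), 1.99% (destruction complex) and 1.73% (planar cell polarity). Differences between lists were not tested.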

How the data were processed

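Chromatin accessibility was measured by bulk ATAC-seq with single-end reads of 50 bp in 6 libraries. Tools named in the submitters' processing notes are Bowtie2 and SAMtools, with mm10 (GRCm38) as the build, and the peak caller is not given in the sources used here. The authors deposited 1 peak list per library, not pooled, with a score (10 times the −log10 p), a −log10 p, a −log10 q and a linear fold of each summit over the local background. The deposited fold is a ratio within a library, so libraries are compared by presence of a peak and by log2 fold after quantile normalisation.

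Groups were taken from the sample labels. Peaks of all 6 lists were merged at 1 bp of overlap, and each region was assigned by its strongest summit to the nearest start site among 21827 coding genes, at most 100 kb away. Fold was tested with limma 3.58.1 in R 4.3.3, over all 69940 merged regions called in all libraries, with 3 residual degrees of freedom and Benjamini-Hochberg adjustment at 0.05. The limma step was tested on simulated data. Other steps ran in Python 3.11.15 with scipy 1.17.1, pandas 2.3.3, numpy 2.4.6 and, for plots, matplotlib 3.10.9. The 32 genes, the other pathway lists and the lower-jaw markers were chosen with earlier results of these data known. Other marker lists are not reported here.

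The text names, for each gene, the best-ranked promoter region. Its rank is averaged over the libraries that call it, so a region called in 1 library can come first. Also named are the label-specific regions ranked in the upper 50% of both lists and the 5 best-ranked distal regions called everywhere (1 per gene). Up to 3 genes per contrast and direction with at least 3 differing regions, and up to 5 regions per direction past the limma threshold, complete the list. Other regions named at these genes were chosen after their values were seen. Alternatives were lists of equal length, a −log10 q of at least 3, peaks over at least 50% of the region or 200 bp, a distance of 50 kb, assignment to every gene within 100 kb, a promoter limit of 2 kb, median centring, a pseudocount of 1, a replicate block and leaving out each library. Genome sequence and annotation came from GRCm38, and promoter sequences from RefSeq.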

Additional observations from a re-analysis of the deposited data

How the results depend on the processing

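With 2 libraries per label and no read numbers, weak peaks limit every count. No log2 fold of a named region changed sign, but the direction with more regions turned round between maxillary-labelled and mandibular-labelled libraries with a stricter q, with lists of equal length and without either maxillary-labelled library, and in both contrasts with nose without either nose library. Requiring a −log10 q of 3 or more, specific regions numbered 7 for each label (21, 30 and 18 without this limit), and the contrasts gave 21 and 14 (maxillary-labelled and mandibular-labelled direction), 21 and 12 (maxillary-labelled and nose) and 30 and 26 (mandibular-labelled and nose). With a distance of 50 kb they gave 17, 18 and 9 specific regions and 28 and 30, 25 and 23, and 30 and 24. With every gene within 100 kb they gave 27, 46 and 25, and 56 and 71, 57 and 51, and 76 and 56. With lists of equal length they gave 22, 16 and 13, and 48 and 24, 44 and 20, and 39 and 35. When a peak had to cover 50% of the region or 200 bp, 14% of regions were called in all libraries in place of 21.6%. Leaving out 1 library gave 23.6 to 25.0% called in all, 23 to 71, 32 to 118 and 21 to 73 specific regions, 37 to 103 and 45 to 154, 37 to 106 and 36 to 108, and 48 to 155 and 39 to 106 regions in the contrasts, because 1 library then stands for its label. Regions past the limma threshold, 1, 3 and 5 in the 3 contrasts, became 4, 5 and 9 with median centring and 0, 1 and 1 when every library had to reach a −log10 q of 3, and 0 to 1, 0 to 1 and 0 to 2 without 1 library. Median centring gave 4 higher and 1 lower between maxillary-labelled and nose libraries, against 3 and 0, and 4 higher and 5 lower between mandibular-labelled and nose libraries, against 3 and 2. With the replicate block there were 3, 4 and 5 regions. Deviations of same-numbered libraries correlated at 0.007, 0.065 and 0.031 across labels. Such values cannot tell whether same-numbered libraries share an embryo, litter or batch. A pseudocount of 1 left the counts at 1, 3 and 5. The cause of these shifts was not tested.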

Other observations

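Single loci of other Wnt pathway genes also had unequal fold among regions called in all libraries. The region 30.0 kb from the start of Dkk3, a Dickkopf family member, was higher in the maxillary-labelled than in the mandibular-labelled libraries by 0.96 ± 0.20 on the log2 scale (limma, adjusted p = 0.0454), and another 16.2 kb from its start was higher in the mandibular-labelled than in the nose libraries by 0.97 ± 0.19 (limma, adjusted p = 0.0250). Frzb, a secreted Wnt antagonist, had a region that was lower in the mandibular-labelled than in the nose libraries, at -0.95 ± 0.19 (limma, adjusted p = 0.0257). In the planar cell polarity pathway, a region of Prickle1 was higher in the mandibular-labelled than in the nose libraries by 1.12 ± 0.21 and a region of Prickle2 lower, at -1.0 ± 0.20 (limma, adjusted p = 0.0214 and 0.0232).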
